A study of Homo sapiens with 9 samples.

Results

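The genes described here are 42 genes of nucleolar ribosome biogenesis, chosen by symbol and taken from the rows of a count table whose Ensembl IDs map to those symbols. The members and the lists set beside them were chosen with earlier results of these data known. Shares called in them are therefore descriptions, and not tests of lists fixed in advance. The members are 42 of 61487 rows, each symbol matched 1 row, and all 42 passed the filter on low counts that left 14630 genes for testing. RNA-seq was read in OVCAR4, an established cell line from a high-grade serous ovarian tumour, with 3 groups of 3 libraries. Pt-resistant cells were given EPZ015666, a small-molecule inhibitor of the arginine methyltransferase PRMT5, at 5 µM over 5 days (treated libraries). Pt-resistant cells under DMSO, the solvent, were 1 derived line made by continuous platinum exposure, and naive cells under DMSO were the parental line. All groups carry the same wild-type genotype label, and whether the resistant line is a single clone is not stated. Wells were seeded in triplicate, and p-values reflect only how much wells of 1 culture differed, which may be technical.

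Ribosome production starts in the nucleolus, where RNA polymerase I copies the ribosomal DNA into a long precursor RNA. Small nucleolar ribonucleoproteins (snoRNPs) then modify its bases and riboses, and the U3 snoRNP with the UTP and MPP10 complexes builds the precursor of the small subunit on it, while another set of factors assembles the large subunit. Rapidly growing tumour cells are known for large nucleoli, and many genes of this pathway are known targets of the transcription factor MYC.

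Set against naive cells, Pt-resistant cells had 23 of the 42 genes higher, 7 lower and 12 not called at an adjusted p under 0.05 (Benjamini-Hochberg, edgeR's quasi-likelihood test over all 14630 genes). The background for these counts is 29.8% of all tested genes called higher and 29.4% called lower, against 54.8% and 16.7% of the members. The median log2 fold change of the members was 0.23 (throughout, ± after a log2 fold change is its standard error), and that of all genes tested was 0.01. Changes were small: the called genes that rose did so 1.17-fold to 2.08-fold, with a median of 1.34-fold. A change of at least 2-fold was called for 15.9% of all genes in either direction and for 1 member, UTP18.

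Under the inhibitor, against DMSO in Pt-resistant cells, 22 members were lower, 2 were higher (FBL and NOP10) and 18 were not called. Of all genes tested, 30.5% were called lower and 31.9% higher, against 52.4% and 4.76% of the members. The members' median was -0.23 and the median of all genes was 0.01. The genes that fell did so 1.16-fold to 2.31-fold, with a median of 1.34-fold, and 1 member, NOP56, passed 2-fold, against 17.9% of all genes tested. This comparison and the one before it use the same 3 Pt-resistant libraries, so a high or low Pt-resistant library moves both in opposite directions, and their values stand side by side below without a measure of their agreement.

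**Figure D1:**
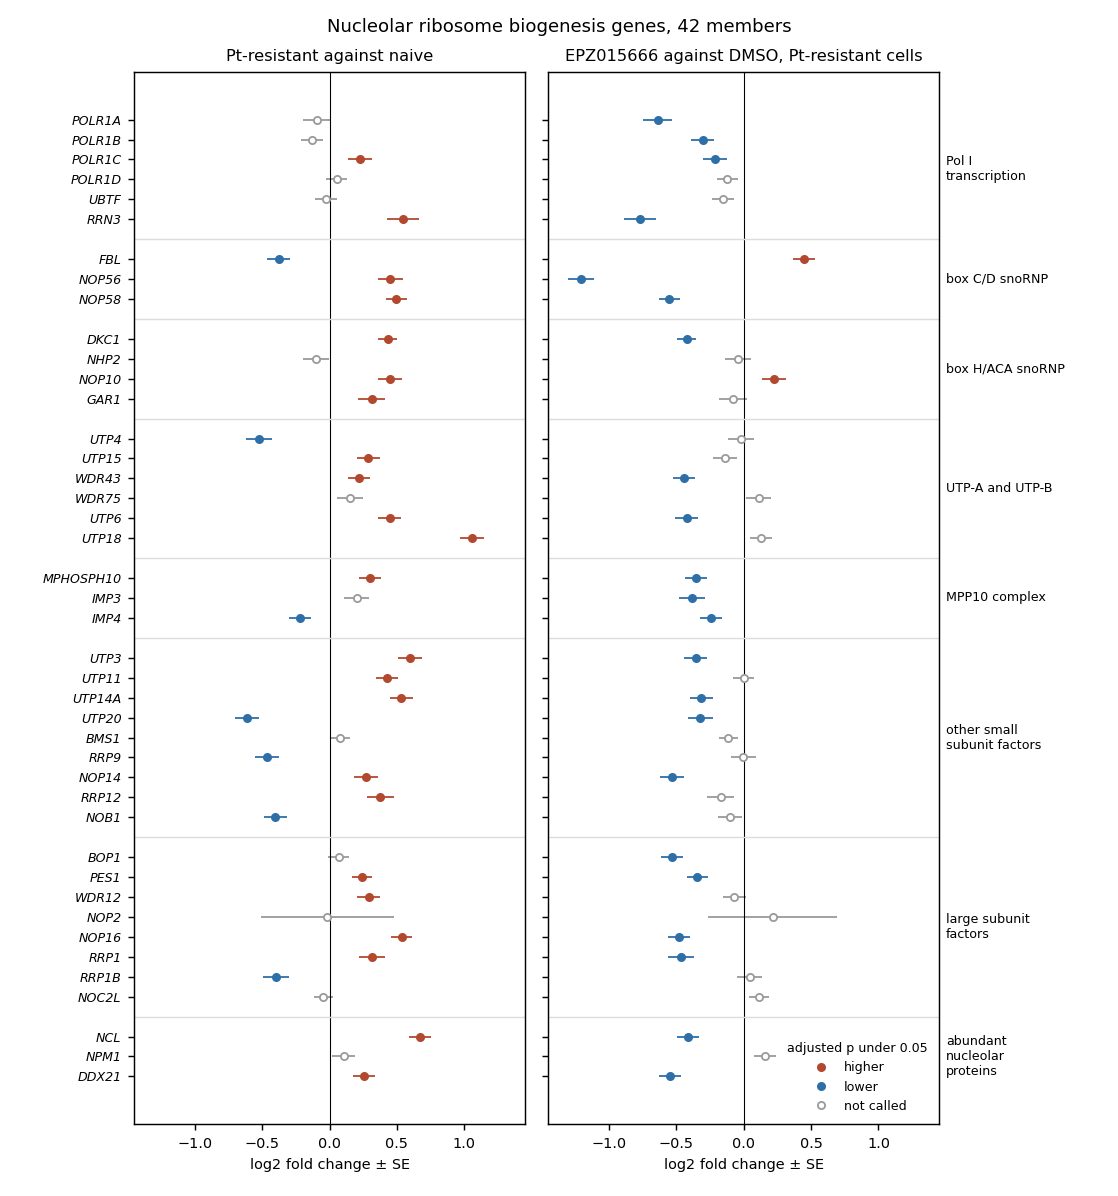
Log2 fold change with its standard error for each of the 42 genes (rows, grouped by role), in Pt-resistant against naive cells on the left and in EPZ015666 against DMSO on the right; filled points passed an adjusted p of 0.05. On the left 23 filled points lie above 0 and 7 below, on the right 2 lie above and 22 below, with NOP56 the lowest at -1.21.

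Total counts ran from 14320929 to 19114811 per library, and every member but NOP2 had at least 142 counts in each. Counts of the 42 genes together made up 0.543%, 0.543% and 0.562% of all counts in treated libraries, 0.717%, 0.664% and 0.678% in Pt-resistant libraries and 0.582%, 0.593% and 0.560% in naive libraries. The share was highest in the 3 Pt-resistant libraries, without overlap, and the treated and naive ranges overlapped by 1 library of each. NPM1, NCL and DDX21 supplied 38.1% to 41.9% of the members' counts in every library, and the other 39 genes alone held 0.315% to 0.329% in treated, 0.393% to 0.421% in Pt-resistant and 0.345% to 0.368% in naive libraries. In bulk samples like these, a change in the kinds of cells present and a change in RNA per cell cannot be told apart.

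Other gene groups moved beside the members. Of 25 proliferation genes, 24 fell in Pt-resistant against naive cells (96%, against 29.4% of all genes tested). Under the inhibitor 24 of them rose (96%, against 31.9% of all genes tested). The medians of the proliferation genes were -0.53 and 0.93 on the log2 scale. Their summed counts were 0.453% to 0.470% of the total in treated, 0.247% to 0.250% in Pt-resistant and 0.365% to 0.385% in naive libraries. Mitochondrially encoded mRNAs held 6.26% to 8.32% of counts in treated, 4.45% to 5.19% in Pt-resistant and 5.97% to 7.82% in naive libraries. In CPM, counts scaled to a common library total, MYC stood at 106, 98.1 and 96.7 CPM in treated libraries, 200.1, 149 and 164 CPM in Pt-resistant libraries and 114, 168 and 117 CPM in naive libraries. MYC was called higher in Pt-resistant against naive cells (log2 fold change 0.37 ± 0.12, adjusted p = 0.00917). Naive library 2 nevertheless lay above Pt-resistant libraries 2 and 3. Under the inhibitor MYC was called lower, without overlap (-0.77 ± 0.12, adjusted p = 5e-06). PRMT5, whose protein the inhibitor blocks, was not called in either comparison, at 117 ± 11 CPM in treated, 117 ± 10 CPM in Pt-resistant and 121 ± 1.5 CPM in naive cells (SD, n = 3 each). The 8 serous and epithelial markers held 0.304% to 0.309% of counts in treated, 0.375% to 0.394% in Pt-resistant and 0.393% to 0.433% in naive libraries, with WT1 at 2 to 8 counts per library. Of the 7 tested, 1 was higher (14.3%) and 5 lower (71.4%) in Pt-resistant against naive cells, against 29.8% and 29.4% of all genes tested. Under the inhibitor 2 were higher (28.6%) and 4 lower (57.1%), against 31.9% and 30.5% of all genes tested. The 11 fibroblast, endothelial and immune markers summed to 0.00954% to 0.0112% in treated, 0.0125% to 0.0134% in Pt-resistant and 0.0145% to 0.0165% in naive libraries, most of it PECAM1 and CDH5, with COL1A2, DCN, PTPRC and CD3E at 0 in at least 1 library. Of the 6 tested, 1 was higher (16.7%) and 5 lower (83.3%) in Pt-resistant against naive cells, beside the same shares of all genes tested. Under the inhibitor 3 were higher (50%) and 2 lower (33.3%), against 31.9% and 30.5% of all genes tested. PECAM1 and CDH5 were the 2 lower ones, and the 3 higher ones were PTPRC (4.64 ± 0.65), CSF1R (3.55 ± 0.41) and COL1A1 (1.42 ± 0.17). PTPRC had 17, 22 and 14 counts in treated, 1, 0 and 1 in Pt-resistant and 7, 3 and 4 in naive libraries. CSF1R had 35, 43 and 40 counts in treated, 3, 3 and 5 in Pt-resistant and 9, 10 and 21 in naive libraries. The part of any of these in the members' changes was not tested.

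**Figure D2:**
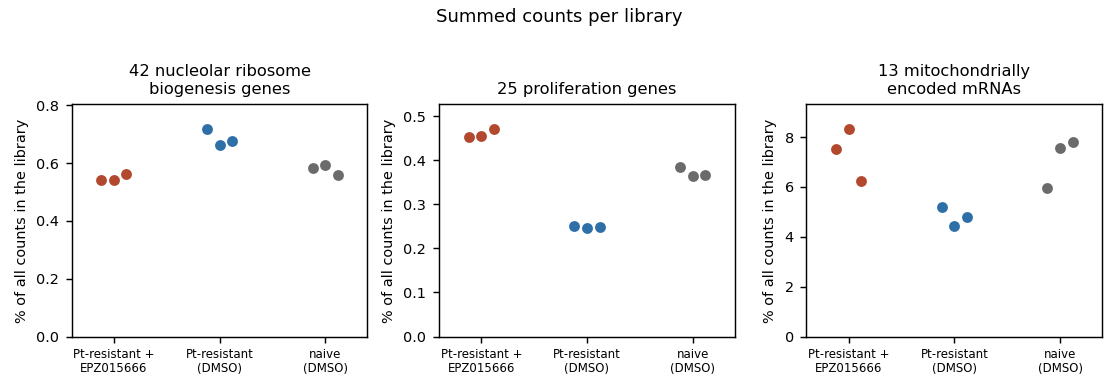
Summed counts as a percentage of all counts in each library (points, 3 per group), for the 42 members, the 25 proliferation genes and the 13 mitochondrially encoded mRNAs; axes are linear and start at 0. The members are highest in Pt-resistant libraries (0.664% to 0.717%), where the other groups of genes are lowest.

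Of the 42 genes, 37 had a promoter in the RefSeq table (GRCh38.p14, 250 bases before the start to 50 after it). The palindrome CACGTG, the E-box that MYC and related factors can bind, occurred in 12 of them (32.4%), against 7.26% of all 35116 promoters and 10.2% of the 10977 promoters of tested genes. The whole motif lay within 20 bases of the start in 8 of the 12. Windows around it are printed, gene strand, 5′ to 3′, for those of the 12 whose values are given by library below. Each of these holds the motif within 20 bases of the start, and UTP18 has another 89 bases before it. PES1 and WDR43 hold it as near, but their windows are not printed. Both were called higher in Pt-resistant against naive cells and lower under the inhibitor. Capitals mark the E-box.
FBL, chr19:39846356-39846385, minus strand, E-box from 7 bases after the start: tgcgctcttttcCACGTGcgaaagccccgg
NOP10, chr15:34343130-34343159, minus strand, E-box from 11 bases before the start: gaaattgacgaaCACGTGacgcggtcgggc
UTP18, chr17:51260538-51260567, plus strand, E-box from 5 bases after the start: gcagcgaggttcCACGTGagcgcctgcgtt
UTP18, chr17:51260445-51260474, plus strand, E-box from 89 bases before the start: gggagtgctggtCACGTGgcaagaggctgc
UTP4, chr16:69132621-69132650, plus strand, E-box from 16 bases before the start: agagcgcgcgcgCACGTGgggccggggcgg
UTP20, chr12:101280083-101280112, plus strand, E-box from 10 bases before the start: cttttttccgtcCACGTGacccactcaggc
RRP9, chr3:51941892-51941921, minus strand, E-box from 5 bases before the start: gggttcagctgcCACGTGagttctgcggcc

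The other E-box promoters belonged to WDR43, IMP4, UTP14A, NOP14, PES1 and NOP2, and NOP10 held a further one. Of the 12 genes, 6 were higher and 5 lower in Pt-resistant against naive cells, and 2 were higher and 6 lower under the inhibitor. In the first comparison 54.8% of the 42 members were higher and 16.7% lower, and 29.8% and 29.4% of all genes tested. Under the inhibitor 4.76% of the members were higher and 52.4% lower, and 31.9% and 30.5% of all genes tested. The letters CCGGAAG, an ETS motif, were found in 13 members (35.1%, against 18.9% of tested genes' promoters), CCAAT in 15 (40.5% against 36.5%), GCGCATGCG, an NRF1 motif, in 3 (8.1% against 3.65%), TCTCGCGAG in 2 (5.4% against 1.38%) and TATAAA in 1 (2.7% against 5.29%), each on both strands and with overlapping motifs counted for each. A match is a stretch of letters and no measure of binding.

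The polymerase I machinery is represented by 6 genes. RRN3, the factor that brings the polymerase to the ribosomal DNA promoter, had 8.53, 9.49 and 11.5 CPM in treated libraries, 18.03, 16.1 and 16.3 CPM in Pt-resistant libraries and 11.1, 11.4 and 12.1 CPM in naive libraries. All 3 Pt-resistant libraries lay above the 6 others, and treated and naive libraries overlapped. The log2 fold change was 0.54 ± 0.12, adjusted p = 0.000342 in Pt-resistant against naive cells and -0.77 ± 0.12, adjusted p = 5.79e-06 under the inhibitor. RRN3 has 3 named pseudogenes, whose reads the counting could split from it. POLR1A, the largest catalytic subunit, read 53.6, 66.8 and 75.1 CPM in treated libraries, 109.8, 86.5 and 108 CPM in Pt-resistant libraries and 104, 117 and 104 CPM in naive libraries. Here the treated libraries were the low ones, and Pt-resistant and naive libraries overlapped (-0.10 ± 0.10, adjusted p = 0.445 for Pt-resistant against naive, -0.64 ± 0.11, adjusted p = 1.37e-05 for the inhibitor).

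POLR1B, its catalytic partner, fell under the inhibitor (-0.31 ± 0.084, adjusted p = 0.00283) and was not called in Pt-resistant against naive cells (-0.13 ± 0.082, adjusted p = 0.171). POLR1C, a subunit shared with RNA polymerase III, was called higher in Pt-resistant cells (0.23 ± 0.090, adjusted p = 0.0329) and lower under the inhibitor (-0.21 ± 0.090, adjusted p = 0.0404). Neither call was stable: the first was lost without any 1 of the 3 naive libraries or without Pt-resistant library 2 or 3 (adjusted p = 0.0553, 0.0651, 0.0749, 0.205 and 0.0855), and the next without Pt-resistant library 2 or 3 or treated library 2 or 3 (0.217, 0.0901, 0.121 and 0.135). With all libraries kept, the first was also lost under scaling by library size (adjusted p = 0.0599), without the filter on low counts (0.0831) and in a fit on the groups compared (0.0549), and the next in DESeq2 (0.0543) and without the filter (0.074). POLR1D, the other subunit shared with polymerase III, and UBTF, which coats active ribosomal DNA, were not called in either comparison, with log2 fold changes from -0.15 to 0.05.

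Box C/D snoRNPs guide the methylation of riboses in ribosomal RNA, and their 3 core proteins here did not move as 1 unit. NOP56 had 131, 137 and 144 CPM in treated libraries, 368, 292 and 293 CPM in Pt-resistant libraries and 211, 261 and 224 CPM in naive libraries. The groups did not overlap, with treated libraries lowest and Pt-resistant libraries highest, and Pt-resistant library 1 stood above the other Pt-resistant libraries. The log2 fold change was -1.21 ± 0.095, adjusted p = 1.39e-10 under the inhibitor, the largest fall of any member, and 0.45 ± 0.093, adjusted p = 0.000206 in Pt-resistant against naive cells. NOP56 has 3 named pseudogenes, and small RNA genes on its own strand cover 8.7% of its exon bases. NOP58, its paralogue in the same particle, had 253, 248 and 257 CPM in treated libraries, 382, 359 and 369 CPM in Pt-resistant libraries and 239.8, 277 and 270.3 CPM in naive libraries. The Pt-resistant libraries were again apart and high, while treated and naive libraries overlapped (0.50 ± 0.075, adjusted p = 4.96e-06 for Pt-resistant against naive, -0.55 ± 0.075, adjusted p = 9.86e-07 for the inhibitor).

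FBL, fibrillarin, the methyltransferase of the particle, had 90.6, 81.2 and 92.4 CPM in treated libraries, 69.0, 63.3 and 61.5 CPM in Pt-resistant libraries and 91.1, 76.2 and 84.3 CPM in naive libraries. It took the reverse course to its partners, with Pt-resistant libraries low and apart and the other groups overlapping: -0.38 ± 0.085, adjusted p = 0.0005 in Pt-resistant against naive cells, and 0.45 ± 0.084, adjusted p = 7.07e-05 under the inhibitor, 1 of the 2 members called higher there. Its E-box is printed above.

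**Figure D3:**
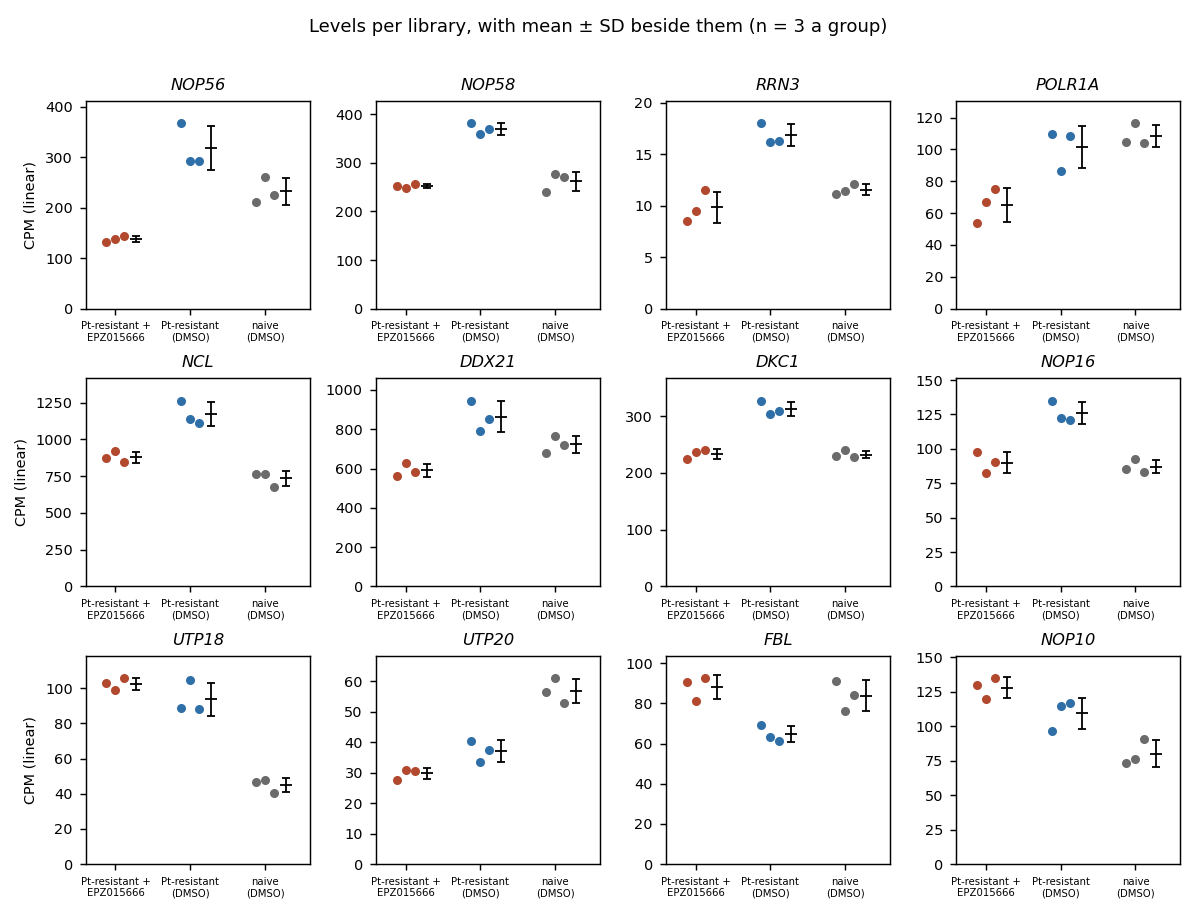
CPM (linear axis from 0) of 12 members in each library, treated on the left, Pt-resistant in the middle and naive on the right, with the group mean ± SD beside the points (n = 3 each). NOP56 is lowest in treated libraries (131 to 144 CPM), FBL is lowest in Pt-resistant libraries (61.5 to 69.0 CPM) and UTP18 is lowest in naive libraries (40.4 to 47.8 CPM).

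Box H/ACA snoRNPs guide the conversion of uridine to pseudouridine. DKC1, dyskerin, the enzyme itself, had 224, 236 and 241 CPM in treated libraries, 328, 304 and 309 CPM in Pt-resistant libraries and 229, 240.2 and 228 CPM in naive libraries. The Pt-resistant libraries lay above all others, and treated and naive libraries overlapped (0.43 ± 0.073, adjusted p = 1.95e-05 for Pt-resistant against naive, -0.42 ± 0.073, adjusted p = 2.14e-05 for the inhibitor). NOP10, a small core protein of the particle, had 129.5, 119.5 and 135 CPM in treated libraries, 96.3, 115 and 117 CPM in Pt-resistant libraries and 73.4, 76.1 and 90.96 CPM in naive libraries. Its order differed from that of DKC1, with treated libraries highest, naive lowest and no overlap between groups. It rose in Pt-resistant against naive cells (0.45 ± 0.092, adjusted p = 0.000193) and was called higher under the inhibitor (0.23 ± 0.090, adjusted p = 0.0329), a call lost without Pt-resistant library 1, treated library 1 or treated library 3 (adjusted p = 0.172, 0.0762 and 0.124), and under scaling by library size alone (0.0598). GAR1 was called higher in Pt-resistant cells (0.31 ± 0.10, adjusted p = 0.0124) on the strength of Pt-resistant library 1, without which the adjusted p was 0.166. NHP2 was called in neither comparison (-0.10 ± 0.097 and -0.04 ± 0.097), and 27.4% of its exon bases are overlapped by a gene on the other strand, RMND5B.

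UTP-A and UTP-B are the complexes that first settle on the precursor RNA of the small subunit. UTP18, of UTP-B, showed the largest rise of any member, with 103, 98.9 and 106 CPM in treated libraries, 88.4, 105 and 88.2 CPM in Pt-resistant libraries and 46.9, 47.8 and 40.4 CPM in naive libraries. The naive libraries were low and apart, and treated and Pt-resistant libraries overlapped. The log2 fold change was 1.06 ± 0.088, adjusted p = 3.93e-10 in Pt-resistant against naive cells, and 0.13 ± 0.085, adjusted p = 0.194 under the inhibitor; without Pt-resistant library 2 the inhibitor comparison passed the threshold (adjusted p = 0.0452). UTP6, its partner in UTP-B, rose in Pt-resistant cells (0.45 ± 0.084, adjusted p = 7.9e-05) and fell under the inhibitor (-0.42 ± 0.084, adjusted p = 0.000129).

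UTP4, of UTP-A, had 32.7, 36.8 and 40.1 CPM in treated libraries, 39.9, 36.5 and 34.9 CPM in Pt-resistant libraries and 46.98, 58.4 and 54.7 CPM in naive libraries. Naive libraries were high and apart, and treated and Pt-resistant libraries overlapped (-0.53 ± 0.096, adjusted p = 5.47e-05 for Pt-resistant against naive, -0.02 ± 0.098, adjusted p = 0.87 for the inhibitor). Of the other UTP-A genes, WDR43 was called higher there (0.22 ± 0.081, adjusted p = 0.0225), a call lost without naive library 1 or 3 or Pt-resistant library 1 or 3 (adjusted p = 0.136, 0.0688, 0.0749 and 0.0593), and it fell under the inhibitor (-0.44 ± 0.082, adjusted p = 5.52e-05). UTP15 was called higher in Pt-resistant cells (0.29 ± 0.088, adjusted p = 0.00688, but 0.0576 without naive library 1), and was not called under the inhibitor. WDR75 was called in neither comparison, and passed in Pt-resistant against naive cells only without Pt-resistant library 1 (adjusted p = 0.0271).

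The MPP10 complex joins the U3 snoRNA to the precursor RNA, and all 3 of its genes fell under the inhibitor: MPHOSPH10 by 0.36 ± 0.082, IMP3 by 0.38 ± 0.097 and IMP4 by 0.24 ± 0.082 on the log2 scale. Of all genes tested, 30.5% were called lower there. IMP3 had 31.2, 27.1 and 28.4 CPM in treated libraries, 36.8, 37.4 and 38.8 CPM in Pt-resistant libraries and 35.1, 27.8 and 35.4 CPM in naive libraries. Pt-resistant libraries were the high ones, above both other groups, and treated and naive libraries overlapped. Its adjusted p was 0.00149 for the inhibitor and 0.0782 for Pt-resistant against naive cells, the second becoming 0.0499 without naive library 3, and 59.3% of its exon bases are overlapped by genes on the other strand. MPHOSPH10 rose in Pt-resistant cells (0.30 ± 0.082, adjusted p = 0.00337). IMP4 was called lower there (-0.22 ± 0.081, adjusted p = 0.0218), which was lost without naive library 1 or Pt-resistant library 2 or 3 (adjusted p = 0.0726, 0.0809 and 0.112), and its inhibitor call (adjusted p = 0.0135) was lost without Pt-resistant library 1 (0.111).

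Of 9 other small subunit factors, 5 were higher (55.6%) and 3 lower (33.3%) in Pt-resistant against naive cells, against 29.8% and 29.4% of all genes tested. Under the inhibitor 4 were lower (44.4%) and none higher, against 30.5% and 31.9% of all genes tested. UTP20, a large scaffold protein of the U3 particle, had 27.6, 31.0 and 30.7 CPM in treated libraries, 40.6, 33.5 and 37.6 CPM in Pt-resistant libraries and 56.5, 60.97 and 53.04 CPM in naive libraries. Each group was apart, treated libraries lowest and naive libraries highest, so that UTP20 was called lower in both comparisons (-0.61 ± 0.090, adjusted p = 3.4e-06 for Pt-resistant against naive, -0.32 ± 0.093, adjusted p = 0.00448 for the inhibitor). RRP9, the protein specific to the U3 snoRNP, had 48.7, 42.96 and 40.9 CPM in treated libraries, 43.5, 42.7 and 46.6 CPM in Pt-resistant libraries and 64.1, 54.2 and 64.9 CPM in naive libraries. Its naive libraries were high and apart (-0.46 ± 0.090, adjusted p = 0.000102), while treated and Pt-resistant libraries overlapped.

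NOB1, the nuclease that makes the last cut of the small subunit RNA, had 43.2, 43.6 and 43.4 CPM in treated libraries, 52.8, 43.2 and 44.1 CPM in Pt-resistant libraries and 60.1, 66.95 and 57.9 CPM in naive libraries. It too was high in naive libraries (-0.40 ± 0.088, adjusted p = 0.000423 for Pt-resistant against naive) and not called under the inhibitor (-0.11 ± 0.090). UTP3, a factor of the small subunit precursor, had 38.96, 38.6 and 38.2 CPM in treated libraries, 50.3, 52.3 and 45.7 CPM in Pt-resistant libraries and 32.4, 35.7 and 29.98 CPM in naive libraries. Pt-resistant libraries were highest, naive lowest and treated between them, with no overlap (0.60 ± 0.088, adjusted p = 3.3e-06 for Pt-resistant against naive, -0.36 ± 0.087, adjusted p = 0.00103 for the inhibitor). UTP14A, which binds and activates a helicase of this particle, followed the same order of means, with 0.53 ± 0.086 and -0.32 ± 0.085 (adjusted p = 1.09e-05 and 0.0026).

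UTP11 rose in Pt-resistant cells (0.43 ± 0.079, adjusted p = 6.29e-05) and stood at 0.00 ± 0.078 under the inhibitor. RRP12, a factor of pre-ribosome export, rose in Pt-resistant cells (0.38 ± 0.099, adjusted p = 0.00222) and was not called under the inhibitor, except without treated library 3 (adjusted p = 0.033). NOP14 fell under the inhibitor (-0.53 ± 0.089, adjusted p = 1.75e-05); its rise in Pt-resistant cells (0.27 ± 0.089, adjusted p = 0.0111) was lost without naive library 3 or Pt-resistant library 1 (adjusted p = 0.111 and 0.0654). BMS1, a GTPase, was called in neither comparison and has 18 named pseudogenes.

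Among the 8 large subunit factors, 4 were higher (50%) and 1 lower (12.5%) in Pt-resistant against naive cells, against 29.8% and 29.4% of all genes tested. Under the inhibitor 4 were lower (50%) and none higher, against 30.5% and 31.9% of all genes tested. NOP16 had 97.5, 82.6 and 90.1 CPM in treated libraries, 135, 122 and 121 CPM in Pt-resistant libraries and 85.7, 92.4 and 83.03 CPM in naive libraries. Pt-resistant libraries were high and apart, and treated and naive libraries overlapped (0.53 ± 0.081, adjusted p = 5.13e-06 for Pt-resistant against naive, -0.48 ± 0.081, adjusted p = 1.67e-05 for the inhibitor). BOP1, PES1 and WDR12 form 1 complex, PeBoW, and their values differed. Under the inhibitor BOP1 stood at -0.53 ± 0.080, adjusted p = 3.96e-06, PES1 at -0.34 ± 0.077, adjusted p = 0.000452 and WDR12 at -0.07 ± 0.087, adjusted p = 0.497. In Pt-resistant against naive cells BOP1 was not called (0.07 ± 0.079), PES1 was called higher (0.24 ± 0.077, adjusted p = 0.00925, but 0.0599 without naive library 3) and so was WDR12 (0.29 ± 0.087, adjusted p = 0.00625, but 0.056 without Pt-resistant library 3).

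The paralogues RRP1 and RRP1B, neighbours on chromosome 21, ran in different directions. RRP1B had 80.3, 89.9 and 81.3 CPM in treated libraries, 91.0, 79.01 and 74.02 CPM in Pt-resistant libraries and 104, 123 and 93.9 CPM in naive libraries. Naive libraries were the high ones, and it fell in Pt-resistant against naive cells (-0.40 ± 0.095, adjusted p = 0.000991), with 0.04 ± 0.096 under the inhibitor. RRP1 was called higher in Pt-resistant cells (0.32 ± 0.096, adjusted p = 0.00684), a call lost without naive library 3 or Pt-resistant library 1 (adjusted p = 0.0517 and 0.0787), and it fell under the inhibitor (-0.47 ± 0.097, adjusted p = 0.000198). NOC2L was called in neither comparison. NOP2, an rRNA methyltransferase, had only 2 to 14 counts per library, and its level cannot be judged. In GENCODE 29 a gene on the same strand, itself without counts, covers 54.4% of its exon bases. The authors' counting leaves out reads that overlap more than 1 gene, but the annotation they used is not given. Whether the overlap lowered the count of NOP2 was not tested.

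NCL, NPM1 and DDX21 are the abundant proteins of the nucleolus. NCL, nucleolin, had 871, 920.1 and 847 CPM in treated libraries, 1264, 1136 and 1113 CPM in Pt-resistant libraries and 765, 768 and 677 CPM in naive libraries. The groups did not overlap, Pt-resistant libraries being highest and naive lowest, with log2 fold changes of 0.67 ± 0.080, adjusted p = 1.65e-07 for Pt-resistant against naive cells and -0.41 ± 0.080, adjusted p = 9.65e-05 for the inhibitor. DDX21, a helicase that acts with polymerase I, had 563, 629 and 581 CPM in treated libraries, 946, 791 and 854 CPM in Pt-resistant libraries and 681, 765 and 721 CPM in naive libraries. Treated libraries were lowest and Pt-resistant libraries highest, without overlap. It fell under the inhibitor (-0.55 ± 0.082, adjusted p = 3.78e-06) and was called higher in Pt-resistant against naive cells (0.26 ± 0.082, adjusted p = 0.0094), the second call being lost without Pt-resistant library 1 (adjusted p = 0.0793).

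NPM1, nucleophosmin, had 845, 789 and 951 CPM in treated libraries, 721, 818 and 773 CPM in Pt-resistant libraries and 707, 691 and 754 CPM in naive libraries. Treated libraries lay above the naive ones, and Pt-resistant libraries overlapped with both. It was called neither in Pt-resistant against naive cells (0.10 ± 0.082, adjusted p = 0.288) nor under the inhibitor (0.16 ± 0.082, adjusted p = 0.0937), where without treated library 2 it passed as higher (adjusted p = 0.0379). NPM1 has 45 named pseudogenes, so its count may miss reads that map to several places.

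Treated cells were also set against naive cells, a comparison that shares its libraries with both others. Of the members, 9 were higher (21.4%), 13 lower (31%) and 20 not called, against 32.2% and 31.2% of all genes called higher and lower. The share called lower was near that of all genes tested, and the share called higher was below it. The members' median was -0.06. At least 2-fold changes were called for 19.8% of all genes and for 1 member, UTP18 (1.19 ± 0.088, adjusted p = 3.63e-11). NOP10 (0.67 ± 0.092) and UTP11 (0.43 ± 0.079) were next among those that were higher, with UTP11 at 91.7, 92.7 and 93.1 CPM in treated libraries, 92.8, 97.8 and 86.7 CPM in Pt-resistant libraries and 63.1, 70.4 and 72.9 CPM in naive libraries. Only its naive libraries stood apart. UTP20 (-0.93 ± 0.092, adjusted p = 5.27e-09), NOP56 (-0.75 ± 0.094, adjusted p = 2.43e-07) and POLR1A (-0.73 ± 0.11, adjusted p = 1.92e-06) led those that were lower, followed by UTP4 (-0.55 ± 0.097) and NOB1 (-0.51 ± 0.089). RRP9, BOP1, IMP4, POLR1B, RRP1B and DDX21 were lower by 1.22-fold to 1.38-fold. DKC1 (0.01 ± 0.073), NOP58 (-0.06 ± 0.075) and NOP16 (0.05 ± 0.082) were not called.

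The remaining calls of treated against naive cells were lost without single libraries, and 4 of them also under another scaling or filter. NPM1 (0.26 ± 0.082, adjusted p = 0.0074), whose treated libraries lay above the naive ones, lost its call without treated library 3 (0.0646), and NCL (0.26 ± 0.080, adjusted p = 0.00786) without naive library 3 (0.0653). WDR75, UTP3, UTP14A and WDR12 were called higher with adjusted p of 0.0182, 0.0224, 0.0311 and 0.0315. Each lost its call without naive library 1 (0.0936, 0.0559, 0.163 and 0.0805) and without at least 2 other libraries. WDR75 had 74.8, 75.4 and 83.6 CPM in treated libraries, 61.6, 76.9 and 77.7 CPM in Pt-resistant libraries and 60.2, 62.2 and 72.5 CPM in naive libraries, the treated and naive libraries being apart and the Pt-resistant ones overlapping with both. WDR75 and WDR12 lost the call without naive library 2 (0.0515 and 0.12), UTP3 and UTP14A without naive library 3 (0.129 and 0.132), and WDR75, UTP14A and WDR12 without treated library 3 (0.0941, 0.144 and 0.186). UTP3 also lost it without treated library 1 (0.0525) and UTP14A without treated library 2 (0.0598). With all libraries kept, scaling by library size put WDR75 at an adjusted p of 0.0555, UTP3 at 0.087, UTP14A at 0.112 and WDR12 at 0.108, and without the filter on low counts UTP3 stood at 0.0662, UTP14A at 0.0567 and WDR12 at 0.054, which left 6 members higher in place of 9. NOP14 and WDR43 were called lower (0.0152 and 0.0221). NOP14 was not without naive library 1 or treated library 3 (0.0809 and 0.0618), and WDR43 was not without naive library 2 or treated library 1 or 3 (0.147, 0.0977 and 0.0798). Of the members not called, UBTF passed as lower without naive library 2 or 3 or treated library 1 (0.041, 0.0227 and 0.0442), IMP3 and NHP2 as lower without naive library 2 (0.0102 and 0.0439), RRN3 as lower without treated library 3 (0.0277) and RRP12 as higher without naive library 2 or treated library 2 (0.0116 and 0.0192).

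Levels between genes were compared per exon length, as mean CPM per kb of the exons in GENCODE 29. NPM1 stood at 225 in treated, 201 in Pt-resistant and 187 in naive cells, and NOP10, whose exons span 0.554 kb, at 231 in treated, 197 in Pt-resistant and 145 in naive cells. These, DDX21, NCL and NHP2 were the 5 most abundant members in naive cells. NOP56 stood at 25.5 in treated, 58.8 in Pt-resistant and 43 in naive cells. The polymerase subunits were lower, with POLR1A at 4.82 in treated, 7.51 in Pt-resistant and 8.03 in naive cells. RRN3, at 2.37 in treated, 4.05 in Pt-resistant and 2.77 in naive cells, was the lowest member apart from NOP2 in treated and in naive cells, and UTP20 was lower than it in Pt-resistant cells, at 2.97 in treated, 3.71 in Pt-resistant and 5.67 in naive cells. Differences between neighbours in this order were not tested.

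**Figure D4:**
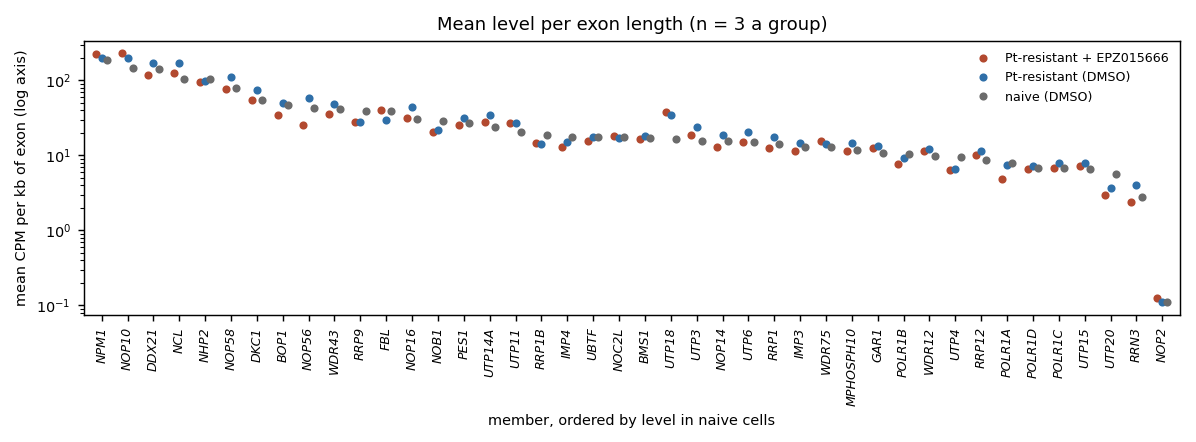
Mean CPM per kb of exon (log axis) for the 42 members, ordered by their level in naive cells, with 1 point per group (n = 3 libraries each): treated, Pt-resistant and naive from left to right at each gene. Levels run from above 100 in every group for NPM1, NOP10, DDX21 and NCL to 2.37 to 5.67 for RRN3 and UTP20, with NOP2 apart at 0.11 to 0.127.

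Of the 42 members, 6 (14.3%) carry genes for small nucleolar or small Cajal body RNAs within their own span on the same strand in GENCODE 29. The share was 1.81% of the 14488 tested genes found there, and the 2 kinds of RNA were counted together. NOP56 carries 5 (SNORD110, SNORA51, SNORD86, SNORD56 and SNORD57), NOP58 carries 4, WDR43 and NCL carry 3 each, DKC1 carries 2 and POLR1C carries 1. Their log2 fold changes ran from 0.22 to 0.67 in Pt-resistant against naive cells and from -1.21 to -0.21 under the inhibitor, comparisons that share the Pt-resistant libraries, and the calls of POLR1C and WDR43 have the limits given above. This property was looked up after the calls were known, so it is given without a test.

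Other genes of ribosome biogenesis were taken from a list of 119, of which 117 were tested. In Pt-resistant against naive cells 68 were higher and 13 lower (58.1% and 11.1%, against 29.8% and 29.4% of all genes tested). The median log2 fold change was 0.28. Under the inhibitor 18 were higher and 47 lower (15.4% and 40.2%, against 31.9% and 30.5% of all genes tested), with a median of -0.15. In Pt-resistant cells 29 of 49 large subunit genes were higher (59.2%) and 9 lower, and 16 of 32 small subunit genes were higher (50%) and 3 lower. Of 14 genes of the RNA exosome that trims ribosomal RNA, 12 were higher (85.7%) and 0 lower. Of 12 further polymerase I genes, 7 were higher (58.3%) and 1 lower. Of 10 snoRNP assembly genes, 4 were higher (40%) and 0 lower. Under the inhibitor 22 of 49 large subunit genes were lower (44.9%) and 4 higher, and 16 of 32 small subunit genes were lower (50%) and 2 higher. Of 14 exosome genes, 4 were lower and 4 higher (28.6% each). Of 10 snoRNP assembly genes, 3 were lower and 3 higher (30% each). Both lists were near the shares of all genes tested. Of the further polymerase I genes, 5 of 12 were higher (41.7%) and 2 lower (16.7%) under the inhibitor.

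In Pt-resistant against naive cells the largest rises in that list were those of POLR1F, a polymerase I subunit (180.4 ± 11 CPM in Pt-resistant and 85.3 ± 5.5 CPM in naive cells; log2 fold change 1.08 ± 0.086), LSG1, a GTPase of late large subunit maturation (1.04 ± 0.083), and TAF1A, of the promoter factor SL1 (1.03 ± 0.099). NLE1, of large subunit assembly, fell the most (21.8 ± 0.36 CPM in Pt-resistant and 39.5 ± 2.6 CPM in naive cells, -0.86 ± 0.088), before DHX37, the helicase that frees U3 (-0.73 ± 0.082), and GRWD1 (-0.66 ± 0.12). Under the inhibitor CAVIN1, described both as a polymerase I release factor and as a coat protein of caveolae, rose the most (255 ± 6.7 CPM in treated and 121 ± 6.8 CPM in Pt-resistant cells, 1.08 ± 0.079), before TAF1D (0.66 ± 0.090) and NOP53 (0.64 ± 0.081). EXOSC6, an exosome subunit, fell the most (7.28 ± 0.62 CPM in treated and 16.7 ± 2.2 CPM in Pt-resistant cells, -1.19 ± 0.13), before RRS1 (-1.01 ± 0.098) and POLR1H (-0.76 ± 0.15). RRS1 acts in large subunit assembly, though the list held it among small subunit genes. These SDs are over 3 libraries, and every change named here passed an adjusted p of 0.05. In treated against naive cells the largest rises were those of CAVIN1 (1.37 ± 0.080), POLR1F (1.20 ± 0.087) and EXOSC9 (1.10 ± 0.093), and the largest falls those of NLE1 (-0.94 ± 0.089), PIH1D1 (-0.72 ± 0.082) and EIF6 (-0.58 ± 0.075).

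The proteins of the ribosome itself were counted in the same way. Of all genes tested, 29.8% were higher and 29.4% lower in Pt-resistant against naive cells, and 31.9% higher and 30.5% lower under the inhibitor. Of 82 tested genes for cytosolic ribosomal proteins, 20 were higher (24.4%) and 17 lower (20.7%) in Pt-resistant against naive cells (median 0.03). Under the inhibitor 11 were higher (13.4%) and 19 lower (23.2%), with a median of -0.04. All of these shares were below those of all genes tested. The cytosolic set was taken by the form of the symbol, which also admits paralogues such as RPS27L. Reads that map to several places are left uncounted, and what that did to these genes was not tested. Of 77 tested genes for mitochondrial ribosomal proteins, 36 were higher (46.8%) and 8 lower (10.4%) in Pt-resistant cells (median 0.18). Under the inhibitor 14 of them were higher (18.2%) and 33 lower (42.9%), with a median of -0.14.

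**Figure D5:**
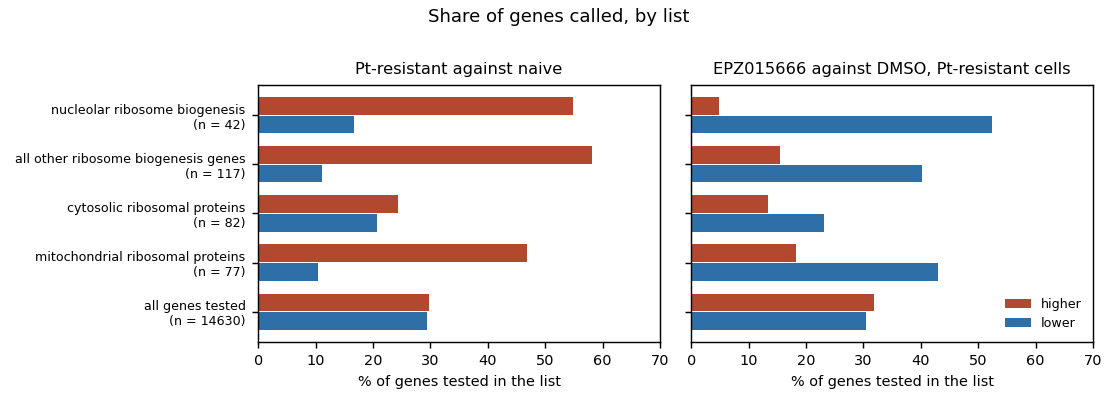
Percentage of tested genes called higher (red) and lower (blue) in 5 sets of genes, in Pt-resistant against naive cells on the left and in EPZ015666 against DMSO on the right. The 42 members reach 54.8% higher on the left and 52.4% lower on the right, where all genes tested reach 29.8% and 30.5%.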

How the data were processed

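Gene expression was measured by RNA-seq in 9 libraries. According to the study's methods, libraries were made with a directional kit, reads were checked with FastQC and aligned by STAR, which also counted reads per gene, and the authors deposited whole-number counts per gene, not normalised. Multi-mapping reads, and those over more than 1 gene, are left uncounted by that tool. Not given in the sources used here were the genome build, the annotation and the strand counted. Symbols were matched by stable Ensembl ID (61369 of 61487 rows in a table of gene names, 105 more in GENCODE 29), and exon lengths and overlaps were taken from GENCODE 29. Besides NHP2 and IMP3, genes on the other strand overlap 20.2% of the exon bases of NOB1 and 20.0% of those of NOP16. The shares for POLR1C and NOP14 are 18.2% and 17.1%.

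Counts were filtered with filterByExpr (minimum count 10), scaled by TMM and fitted over all 9 libraries without covariates in edgeR 4.0.16 (R 4.3.3), by the quasi-likelihood test, with Benjamini-Hochberg adjustment over 14630 genes that held 99.88% of counts. Standard errors were taken as the log2 fold change divided by the square root of F. CPM divide counts by the TMM-scaled total. The biological coefficient of variation was 7.66%. Within a group, libraries correlated at 0.9912 to 0.9933. No libraries agreed within sampling noise (chi-square per degree of freedom 5.2 to 11.4). Alternatives were RLE or library size scaling, DESeq2 1.42.0, limma-voom (limma 3.58.1), other filters, fits on the groups compared, a replicate block and each library left out in turn.

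The members, their roles and the other lists were chosen with earlier results of these data known. All members could be named. Values of every library are given for the 5 called members with the largest fold in each direction of a comparison and for the member with the largest fold of each role, and of the other pathway genes the 3 largest in each direction are named. In the comparison of treated with naive cells, such members are given by library under their role. ATAC-seq and ChIP-seq data were not used here.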

Additional observations from a re-analysis of the deposited data

How the results depend on the processing

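Each member's fold change in each comparison was recomputed under every alternative, except that NOP2 did not pass the filter at 1 CPM in 3 libraries and has no value there. No called member changed direction. The 45 changes of sign all belonged to members not called in the comparison, 62 fold changes lost their call and 18 gained one, and 1636 kept direction and call. Leaving out 1 library at a time gave 19 to 22 members higher and 6 to 7 lower in Pt-resistant against naive cells, 1 to 3 higher and 21 to 22 lower under the inhibitor, and 5 to 9 higher and 12 to 15 lower in treated against naive cells. Scaling by library size alone gave 1 member higher under the inhibitor in place of 2, and 5 in place of 9 in treated against naive cells; in that comparison it moved the median of all genes to -0.06, and 4240 genes were higher and 5042 lower, against 4710 and 4566.

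Uncalled values turned sign as follows, on the log2 scale. Scaling by library size gave -0.033 for UTP11 under the inhibitor, and -0.048 for POLR1C, -0.053 for DKC1, -0.036 for UTP6 and -0.009 for NOP16 in treated against naive cells. Without a filter on low counts UTP11 stood at -0.001 under the inhibitor, and POLR1C at -0.002 and DKC1 at -0.008 in treated against naive cells. A fit on the groups compared gave -0.005 for UTP11. RRP9 under the inhibitor was 0.002 with RLE scaling, 0.002 with DESeq2 and 0.000 with a filter at 1 CPM. NOP2, with 2 to 14 counts, was 0.225 with limma-voom. Without 1 library, values ran -0.164 to 0.004 for POLR1A, -0.090 to 0.067 for UBTF, -0.190 to 0.030 for NHP2 and -0.470 to 0.490 for NOP2 in Pt-resistant against naive cells, -0.118 to 0.014 for NHP2, -0.154 to 0.059 for GAR1, -0.092 to 0.056 for UTP4, -0.046 to 0.042 for UTP11, -0.077 to 0.052 for RRP9, -0.060 to 0.406 for NOP2 and -0.023 to 0.135 for RRP1B under the inhibitor, and -0.043 to 0.044 for POLR1C, -0.012 to 0.040 for DKC1, -0.027 to 0.060 for UTP6, -0.062 to 0.000 for BMS1, -0.259 to 0.700 for NOP2 and -0.007 to 0.110 for NOP16 in treated against naive cells. The cause of these changes was not tested.

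Libraries share replicate numbers across groups. Deviations of same-numbered libraries from their group means correlated at -0.0758 to 0.0995 across genes, so the numbers were not taken to pair the samples. With the replicate block the counts were 23 higher and 7 lower, 2 higher and 22 lower, and 10 higher and 14 lower in the 3 comparisons, and NOP2 stood at 0.032 in Pt-resistant against naive cells. UBTF in treated against naive cells passed with the block and under scaling by library size (adjusted p = 0.0461 and 0.0163), GAR1 with the block and in a fit on the groups compared (0.0466 and 0.0471), and IMP3 under scaling by library size (0.0376). Depth limits NOP2 (2 to 14 counts per library); every other member had at least 142.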
